A study of Arabidopsis thaliana with 2 samples.

Results

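The 116 genes described here gave the brightest nuclear signals on ATH1 arrays of whole Arabidopsis plants. They were chosen by the signals themselves: a probe set, the group of short probes that reads 1 transcript, was taken when the mean of its csb3 and Col-0 signals was 3000 or more, when the annotation paired it with 1 gene and when that gene lies in the nucleus. They are 116 of the 13367 nuclear probe sets paired with 1 gene, which read 13217 genes. On the whole array 442 probe sets reached that level. Of these, 12 were controls, 278 were not listed in the annotation used and 19 were paired with several genes, and these are not described. Of the 133 paired with 1 gene, 14 read chloroplast-encoded genes and 3 nuclear ones were left out by name (RCA, SBPASE and CHLM).

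The arrays compared csb3, a mutant in the Col-0 background, with wild-type Col-0. Plants of both genotypes were 5 weeks old and had grown under 10 h of light and 14 h of dark. RNA from whole plants was hybridised to 1 array per genotype, so the differences below have no replicate check and carry no p-value. The design text names 5 plants and does not say whether they were pooled. csb3 was recovered in a screen of plants with a GUS reporter under the promoter of a pathogen-induced subtilase gene, and its lesion lies in HDS, an enzyme of plastid isoprenoid synthesis. No probe set is named for HDS here, so the mutated gene could not be checked. Whole plants hold several organs, and fewer cells of a type cannot be told apart from less RNA per cell.

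In green plants the nucleus encodes most small subunits of the photosystems, the antenna proteins that bind chlorophyll and nearly all enzymes of the Calvin cycle. These proteins are made in the cytosol and imported into the chloroplast, and their transcripts are among the most abundant of leaf cells. Housekeeping enzymes and stress-related proteins share the top of the range. The tables used give a gene name to 33 of the 116 members. The other 83 appear there by locus code only, and no function is given for them below.

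At this brightness csb3 signals were mostly below those of Col-0 as deposited. They were level under quantile or lowess scaling, which make bright signals level by construction. Scaled on spike-in controls they were above Col-0, but that scaling moves the whole array by 1 factor. As deposited, 92 of the 116 members were lower and 24 were higher in csb3 by any amount. The share of lower ones was 79.3%, against 43.9% of all nuclear probe sets with signals of 50 or more on both arrays. The median signal of the members was 3690.5 in csb3 and 4944 in Col-0. On the log2 scale, the median of csb3 over Col-0 was -0.63, with quartiles of -0.85 and -0.14, whereas the median over those nuclear probe sets was 0.08. At 2-fold or more, 13 members were down and 1 was up in csb3. Over all nuclear probe sets paired with 1 gene, 2.33% were down and 3.61% were up by the same rule, and over every probe set of the array 2.74% were down and 4.56% up. Both signals entered the choice of members and both form the ratio, so these counts are descriptions.

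The direction rests on how the arrays are scaled to each other. As deposited, each array is scaled to the same trimmed mean. With the reference genes TIP41 and SAND made level, the same 116 genes had a median of -0.86 with 42 down and 0 up at 2-fold, and with the medians of the arrays made equal it was -0.71 with 22 down and 1 up. Quantile normalization gave -0.05 with 1 down and 1 up, and a scaling that follows brightness (lowess) gave -0.06 with 1 down and 2 up. By construction, both make the bright signals of the arrays level as a whole, so these medians say little about the genotypes. Making the spike-in controls level, an alternative picked once the data had been seen, turned the median to 0.35 with 0 down and 23 up. All ratios below are as deposited unless another scaling is named.

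**Figure D1:**
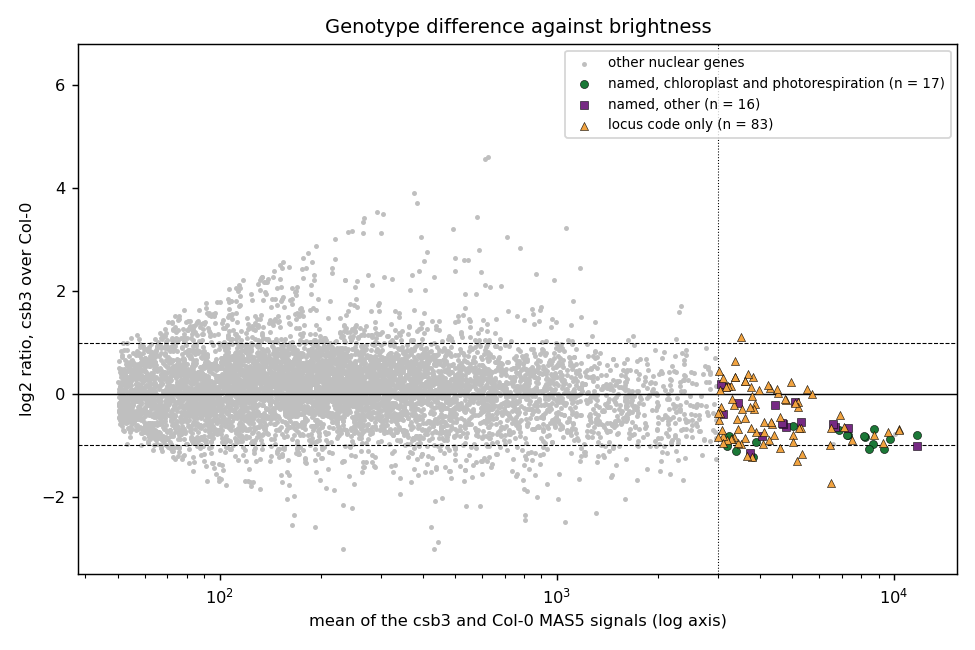
Log2 of csb3 over Col-0 for each nuclear probe set against the mean of its csb3 and Col-0 signals on a log axis, with the 116 bright members coloured by kind, a dotted line at 3000 and dashed lines at 2-fold. Right of 3000, 92 of 116 points lie below 0 as deposited (14 when scaled on the spike-in controls), and the point highest above 0 is AT5G27700, 2.15-fold higher in csb3 and under 2-fold with TIP41 and SAND made level.

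The proteins of the thylakoid, the membrane of the light reactions, formed the largest named group. As deposited its 11 members were all lower in csb3, unlike with quantile, lowess or spike-in scaling, with log2 ratios from -1.23 to -0.62 and a median of -0.83, and 4 of the 11 were down at 2-fold. Making TIP41 and SAND level, or the medians equal, lowers every log2 ratio by 1 amount (0.23 or 0.08). All 11 therefore had to stay lower under both. Quantile normalization gave ratios from -0.90 to 0.0, lowess from -0.82 to 0.01 and the spike-in controls from -0.25 to 0.36. LHCB4.1 and LHCB4.2 encode the antenna protein CP29, which links the outer antenna to the core of photosystem II. LHCB4.1 had a signal of 8533 in csb3 and 14894 in Col-0 (1.75-fold lower in csb3), and LHCB4.2 of 5888 in csb3 and 10369 in Col-0 (1.76-fold lower). The pair thus changed by nearly the same factor.

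Among small subunits of photosystem II, PSBY had a signal of 6046 in csb3 and 12678 in Col-0, which is 2.10-fold lower in csb3. PSBW had 5355 in csb3 and 9249 in Col-0, and PSB27, a lumenal factor in assembly and repair of the complex, had 3963 in csb3 and 6090.2 in Col-0. PSB27 differed least within the group, at a log2 ratio of -0.62. For photosystem I, PSAE-1, a subunit on the stromal side where ferredoxin docks, had 6854 in csb3 and 12588 in Col-0. PSAN, a lumenal subunit near the plastocyanin site, had 5321 in csb3 and 9193 in Col-0. Both photosystems were therefore represented among the lower signals, at log2 ratios of -0.88 for PSAE-1 and -0.79 for PSAN.

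CURT1A and CURT1C bend the thylakoid membrane at the margins of grana. CURT1A had a signal of 5442 in csb3 and 11450.3 in Col-0 (2.10-fold lower) and CURT1C of 2166 in csb3 and 4646 in Col-0 (2.14-fold lower), so both were down at 2-fold. CaS, a calcium sensing protein of the thylakoid, had 2278 in csb3 and 5351 in Col-0 and was 2.35-fold lower, the largest difference of the group. ATPC1, the gamma subunit of the chloroplast ATP synthase, had 5896 in csb3 and 10490.0 in Col-0, a log2 ratio of -0.83.

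The other named members of chloroplast metabolism and photorespiration, 6 in number, were also lower in csb3 as deposited, but not all of them with quantile, lowess or spike-in scaling, at a median of -0.88 in log2. PRK, which makes the substrate of Rubisco in the Calvin cycle, had a signal of 5856 in csb3 and 11464 in Col-0. AT1G74470, the geranylgeranyl reductase that supplies the phytyl chain of chlorophyll and of tocopherols, had 6688 in csb3 and 10724 in Col-0. HPR, the hydroxypyruvate reductase of peroxisomes that acts in photorespiration, had 5208 in csb3 and 8517 in Col-0. These enzymes were 1.96-fold, 1.60-fold and 1.64-fold lower in csb3, in that order. THX and ATHM2 are thioredoxins of the chloroplast that pass reducing power to target enzymes. THX had 2109 in csb3 and 4277 in Col-0 and was down at 2-fold, and ATHM2 had 2663 in csb3 and 5108 in Col-0, a log2 ratio of -0.94. THIC, which makes the pyrimidine part of thiamine, had 2342 in csb3 and 4132 in Col-0. Across the 17 members of both chloroplast groups, 5 were down, 12 were neither and none was up.

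**Figure D2:**
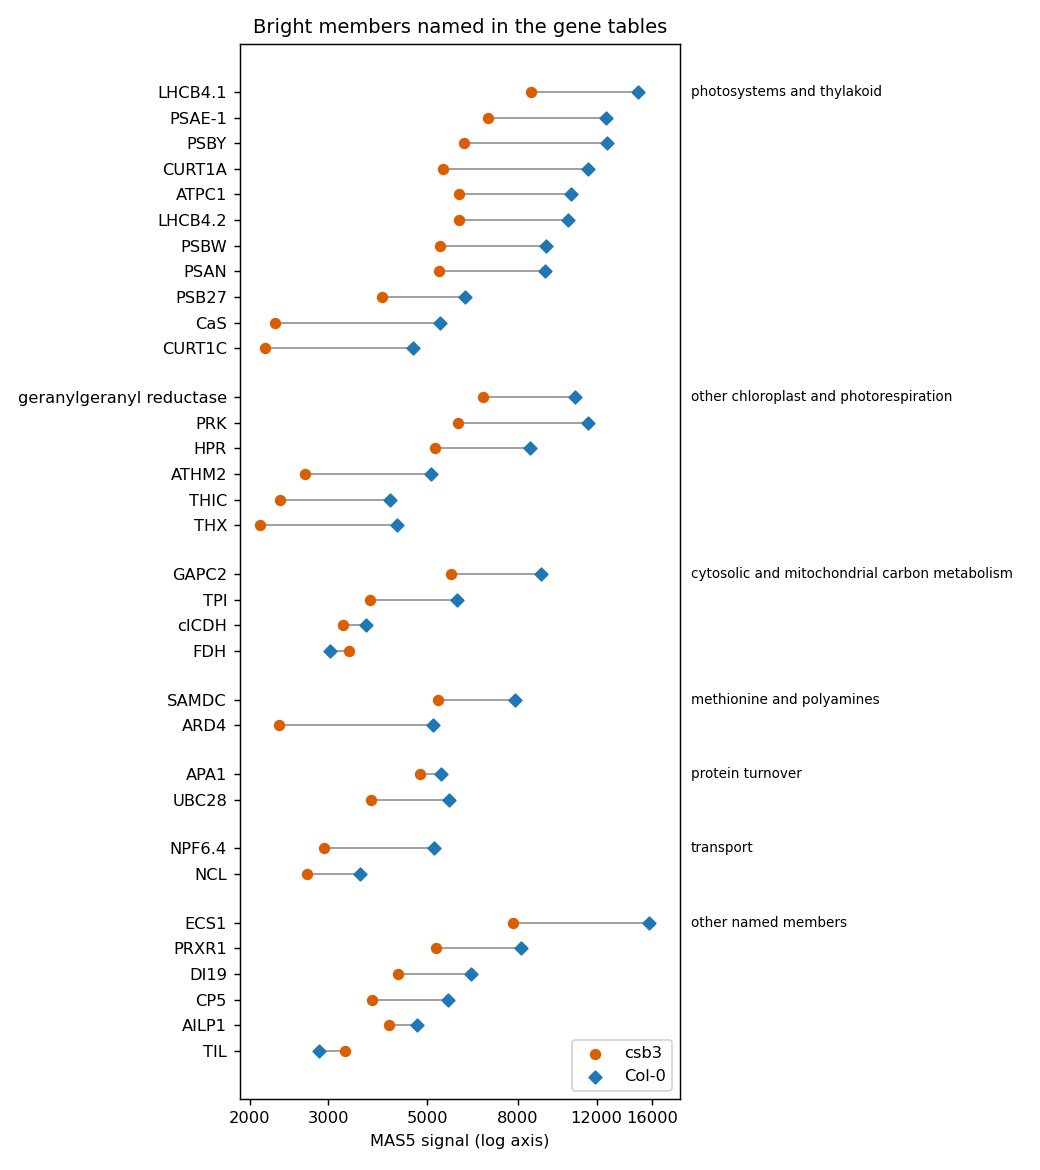
MAS5 signals in csb3 (circles) and Col-0 (diamonds) of the 33 bright members with a name in the gene tables, on a log axis and ordered by group. In 31 of 33 pairs the csb3 signal as deposited is the lower one, with FDH and TIL as the exceptions, a direction that scaling on the spike-in controls turns for most bright members (102 of 116 then higher).

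The 16 named members outside these groups had a median log2 ratio of -0.57, with 2 down and none up. In central carbon metabolism, the cytosolic glycolytic enzymes GAPC2 and TPI were lower, GAPC2 at 5663 in csb3 and 8985 in Col-0 and TPI at 3733 in csb3 and 5822 in Col-0. cICDH, the cytosolic isocitrate dehydrogenase that forms NADPH, had 3240.1 in csb3 and 3654 in Col-0, a log2 ratio of -0.17. FDH, the formate dehydrogenase of mitochondria, had 3336 in csb3 and 3029 in Col-0, a log2 ratio of 0.14. With TIP41 and SAND made level all 4 genes were lower (FDH at -0.09), and with the spike-in controls all 4 were higher.

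In the metabolism of methionine and polyamines, ARD4, an acireductone dioxygenase of the methionine salvage cycle, had a signal of 2324 in csb3 and 5144 in Col-0 and was 2.21-fold lower. SAMDC, which provides the aminopropyl groups of spermidine and spermine, had 5278 in csb3 and 7875 in Col-0, a log2 ratio of -0.58. In protein turnover, the ubiquitin-conjugating enzyme UBC28 had 3738 in csb3 and 5614 in Col-0, and the vacuolar aspartic proteinase APA1 had 4826 in csb3 and 5362 in Col-0. APA1 was thus nearly level, at a log2 ratio of -0.15. Among transporters, NPF6.4 of the family of nitrate and peptide transporters had 2943 in csb3 and 5196 in Col-0, and the Na+/Ca2+ exchanger NCL had 2689 in csb3 and 3528 in Col-0.

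ECS1 had the highest mean signal of all members. Its signal was 7775 in csb3 and 15707 in Col-0, so it was 2.02-fold lower in csb3 and only just past 2-fold. The peroxidase PRXR1 had 5248 in csb3 and 8136 in Col-0, and DI19, a zinc finger protein first found as drought-induced, had 4309.8 in csb3 and 6258 in Col-0. The temperature-induced lipocalin TIL, which acts in tolerance of heat and cold, had 3268 in csb3 and 2864 in Col-0, a log2 ratio of 0.19 as deposited and -0.04 with TIP41 and SAND made level. CP5 (3761 in csb3 and 5560.2 in Col-0) and AILP1 (4104 in csb3 and 4741 in Col-0) complete the named members.

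The 83 members with a locus code only spread more widely than the named ones. Their log2 ratios had a median of -0.48 and an SD of 0.52, against -0.79 and 0.35 for the 33 named members. At -1 or below lay 6 of the 83, another 35 lay between -1 and -0.5, 20 between -0.5 and 0, and 22 above 0. AT1G66100 differed most of all 116, with 3016 in csb3 and 9992 in Col-0, a 3.31-fold lower signal. AT2G10940 had 2961 in csb3 and 7332 in Col-0 and AT5G55620 had 2265 in csb3 and 5302 in Col-0. The other 3 that were down were AT3G50685, AT3G16370 and AT5G19760, at log2 ratios of -1.21, -1.17 and -1.06.

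AT5G27700 was the 1 member up at 2-fold, a call that was lost with TIP41 and SAND made level (log2 ratio 0.88). Its signal was 4793 in csb3 and 2229.7 in Col-0, a 2.15-fold higher value in csb3. Next came, in order of ratio, AT2G25450 with 4117 in csb3 and 2638 in Col-0 (1.56-fold higher), AT3G02080 with 3477 in csb3 and 2559 in Col-0, AT1G52300 with 4172 in csb3 and 3186 in Col-0 and AT3G60245 with 4259 in csb3 and 3367 in Col-0. None of these 4 reached 2-fold. The 24 members higher in csb3 had mean signals from 3018 to 5538, so they sat in the lower part of the bright range. The brightest of them was AT5G20290 with 5717 in csb3 and 5358 in Col-0, and all 27 members brighter than it were lower in csb3, AT3G09440 only marginally (5713 in csb3 and 5714 in Col-0).

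Among the brightest members without a name, AT3G22240 had 7938 in csb3 and 12780.2 in Col-0, AT2G25510 had 7841 in csb3 and 12822 in Col-0, AT1G51400 had 7192 in csb3 and 12032 in Col-0 and AT2G45180 had 6341 in csb3 and 12248 in Col-0. Their log2 ratios, from -0.95 to -0.69, lay in the range of the thylakoid group. AT2G26500 had 6356 in csb3 and 11053 in Col-0. AT4G16980 was the 1 member gene with a second probe set, which had signals of 29.4 in csb3 and 66.9 in Col-0, whereas its bright probe set had 4327 in csb3 and 8569.7 in Col-0. The csb3 signal of that second probe set lies under the floor of 50, so it gives no check of the ratio.

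Within the bright range, the difference as deposited was larger in the brighter members, a pattern that lowess scaling removes by construction. The 55 members with mean signals from 3000 to under 4000 had a median log2 ratio of -0.37, and 18 of them were higher in csb3. The 35 from 4000 to under 6000 had a median of -0.54 with 6 higher. The 26 at 6000 or more had a median of -0.79, none of the 26 was higher, and their SD was 0.24, against 0.56 in the lowest of these ranges. The mean signal chose the members and is built from the same signals as the ratio, so these values are a description.

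Below the limit, the median ratio did not follow 1 trend, while the share down at 2-fold rose from each range to the next. At 50 to under 100 the floor of 50 limits the ratios and the calls. Median log2 ratios were 0.0 at mean signals of 50 to under 100, 0.17 at 100 to under 300, 0.09 at 300 to under 1000, -0.13 at 1000 to under 3000 and -0.63 in the bright members. The share down at 2-fold was 2.98%, 3.61%, 5.32%, 7.49% and 11.2% over the same ranges, and the share up was 5.96%, 8.67%, 6.05%, 2.44% and 0.862%. The SD of the ratios was 0.50 in the bright members, against 0.63 in the range just below, so the members shifted more and scattered less. These values describe 1 pair of arrays and no test of the difference between ranges was possible.

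**Figure D3:**
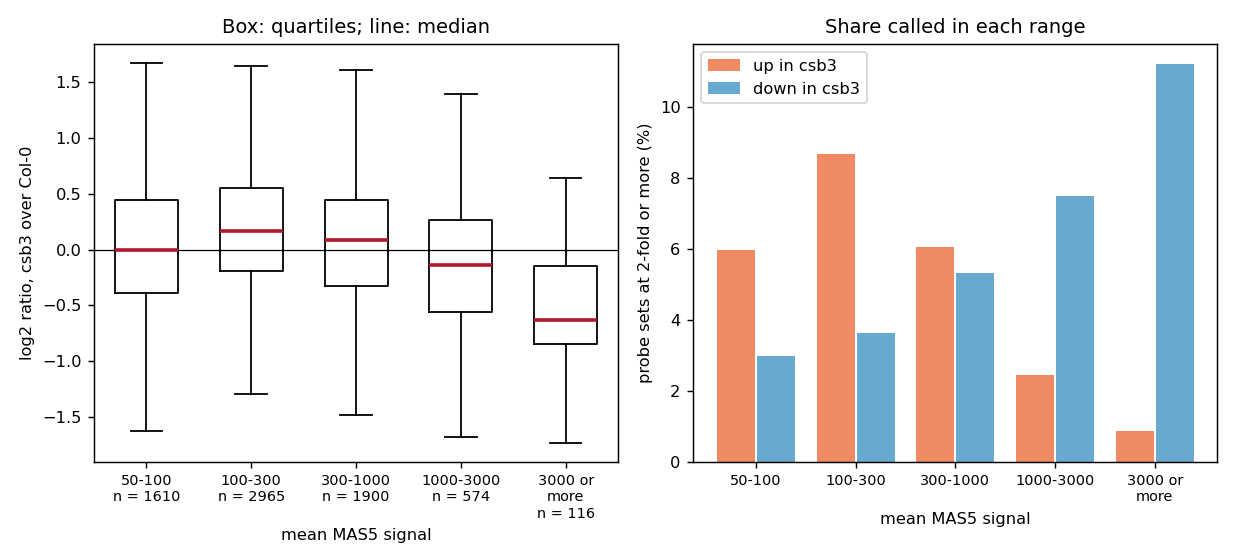
Nuclear probe sets paired with 1 gene by range of mean signal, with log2 of csb3 over Col-0 as boxes of quartiles (left; whiskers reach the last value within 1.5 box lengths) and the share up or down at 2-fold in percent (right). As deposited the median is 0.17 at 100 to 300 and -0.63 at 3000 or more, where 11.2% are down and 0.862% up, while scaling on the spike-in controls turns that last median to 0.35.

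Summed over the 116 members, the signal was 462534 in csb3 and 679172 in Col-0. This was 6.30% of the signal of all probe sets other than controls in csb3 and 8.23% in Col-0. The signal of 3000 was reached by 83 members in csb3 and by 109 in Col-0. It was reached on both arrays by 76 members, in csb3 alone by 7 and in Col-0 alone by 33. The highest member signal was 8533 in csb3, of LHCB4.1, and 15707 in Col-0, of ECS1.

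The place of a probe set among the 13367 nuclear ones on its own array is not altered by scaling that array with 1 factor, and it changed for nearly all members. In csb3, 62 members stood further down the order than in Col-0, 51 stood further up and 3 had the same place. Of the 17 chloroplast and photorespiration members, 12 stood further down in csb3, 4 further up and 1 at the same place. Their median place was 21 in csb3 and 18 in Col-0. Near the top LHCB4.1 was at place 1 in csb3 and 2 in Col-0, PSAE-1 at 7 on both arrays, and PSBY at 11 in csb3 and 6 in Col-0. ECS1, the brightest in Col-0, was at 4 in csb3.

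Lower down, the changes of place were wide. CaS stood at place 173 in csb3 and 50 in Col-0, CURT1C at 194 in csb3 and 66 in Col-0, and THX at 202 in csb3 and 75 in Col-0. ARD4 was at 167 in csb3 and 56 in Col-0. AT1G66100 was at 100 in csb3 and 16 in Col-0. In the other direction AT5G27700 was at 31 in csb3 and 240 in Col-0, FDH at 77 in csb3 and 137 in Col-0, and TIL at 82 in csb3 and 159 in Col-0. All 24 members with a higher signal in csb3 stood further up there, with a median place of 51.5 in csb3 and 127 in Col-0. This was nearly fixed in advance, as fewer nuclear probe sets reached 3000 in csb3 (100) than in Col-0 (142). A place is one of signals, which differ between probe sets for reasons other than transcript number.

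**Figure D4:**
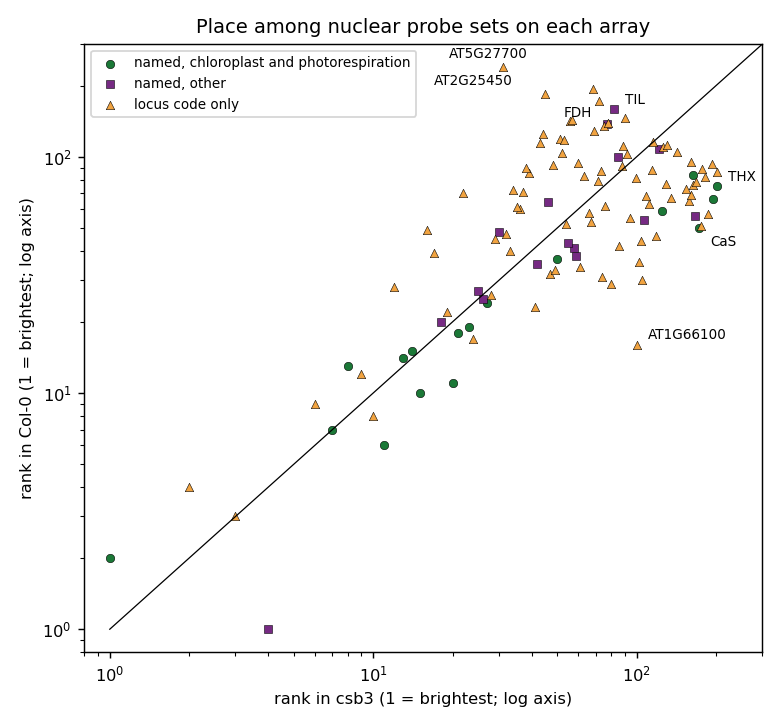
Place of each of the 116 bright members among 13367 nuclear probe sets in csb3 (horizontal) and in Col-0 (vertical), 1 being the brightest, on log axes with the line of equal place. Points above the line stand further up in csb3, such as AT5G27700 (31 in csb3, 240 in Col-0), and points below it stand further down, such as CaS (173 in csb3, 50 in Col-0).

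Between the 17 chloroplast and photorespiration members and the other 99, the medians differed by -0.29 in log2 as deposited (-0.83 for the 17 and -0.54 for the 99). The difference was the same under any scaling by 1 factor, -0.15 with quantile normalization and -0.14 with lowess. The 17 were also the brighter set, with a median place in Col-0 of 18 against 67 for the 99. Ratios as deposited were lower in brighter members, and the part of brightness in this difference was not tested. With quantile normalization or lowess, 15 of the 17 were lower in csb3, beside 65 of all 116 members, and with the spike-in controls 5 of 17 were, beside 14 of 116. Several of the 15 were close to 0, such as LHCB4.2 at -0.035 and PSAE-1 at -0.050 with quantile normalization. The 17 were grouped by name and 83 of the 116 have none, so the other 99 can hold further chloroplast genes.

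**Figure D5:**
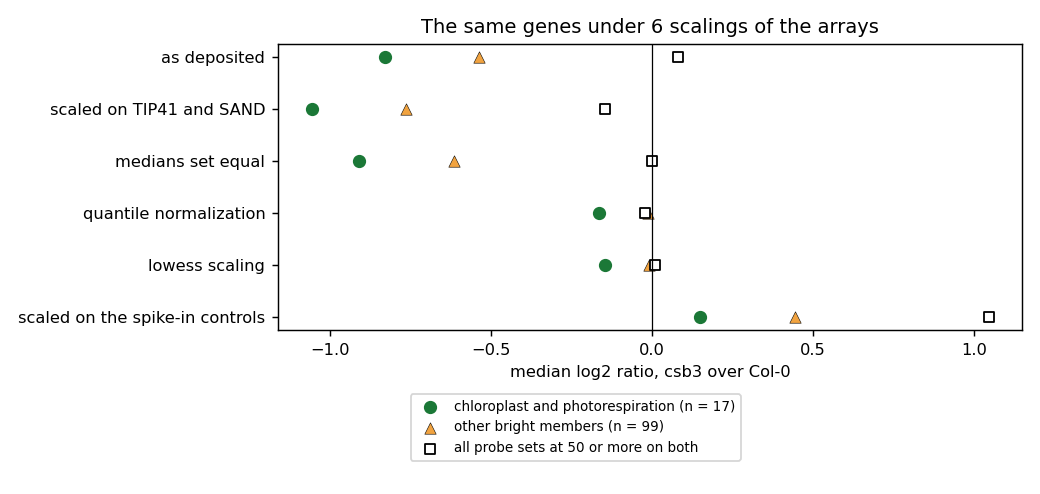
Median log2 of csb3 over Col-0 under 6 scalings of the arrays, for the 17 chloroplast and photorespiration members (circles), the other 99 bright members (triangles) and all probe sets at 50 or more in csb3 and in Col-0 (squares). The circles, as a set the brighter members, lie left of the triangles in each row, by -0.29 as deposited and by -0.14 with lowess. With the spike-in controls circles, triangles and squares all lie above 0, the squares furthest right (1.05).

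Genes of the same pathways below the limit of 3000 were read from lists of light harvesting, photosystems and electron transport, the Calvin cycle and chlorophyll and isoprenoid synthesis. The lists went by patterns in symbols and synonyms and took in PSY1R, a receptor kinase, and CHL, a lipocalin of the chloroplast, which belong to none of these pathways. Of the other 16 genes with a mean signal of 50 or more, 3 were down (18.8%), none was up and 13 were neither, with a median log2 ratio of -0.42. By any amount, 12 of the 16 were lower and 4 were higher in csb3. The largest rise was that of AT4G38100, with 402 in csb3 and 280 in Col-0. PSY1R and CHL were left out after their values were seen, and with them the 18 genes had 4 down and a median of -0.55. Over all 7047 nuclear probe sets between 50 and the limit, 4.24% were down, 6.84% were up and the median was 0.09. Several of the 16 had means of 1000 to under 3000, where 7.49% of the nuclear probe sets were down and the median was -0.13. LIL3:2 and LIL3:1, light-harvesting-like proteins that hold the enzymes of chlorophyll synthesis at the membrane, had 1776 in csb3 and 2883 in Col-0, and 1421 in csb3 and 2241 in Col-0. TROL, which tethers ferredoxin-NADP reductase to the thylakoid, had 1505 in csb3 and 2455 in Col-0. These were 1.62-fold, 1.58-fold and 1.63-fold lower, in that order. TAPX, the ascorbate peroxidase of the thylakoid, had 685 in csb3 and 1521 in Col-0 and was down, as was LHCB4.3, the third gene for CP29, at 321 in csb3 and 1794 in Col-0. CHLI2 of chlorophyll synthesis was also down, at 328 in csb3 and 672 in Col-0. PGRL1B of cyclic electron flow was level, at 421 in csb3 and 425 in Col-0, and HEMB1 of tetrapyrrole synthesis had 1252 in csb3 and 1219.6 in Col-0. In the list of ubiquitin, histones and protein turnover, 35 genes below the limit had a median of 0.12 and none was up or down. Other lists below the limit that had calls had them in both directions or up only. Defence and secreted proteins had 13 up and 5 down of 56, and stress and redox 3 up and 2 down of 34. Cytoskeleton and signalling had 2 up and 1 down of 23. Amino acids and sulphur had 3 up of 24, and glycolysis and respiration 1 up of 12. Photorespiration and carbonic anhydrase (2 genes) and cytosolic translation (1 gene) had no call. These lists were not cleared of genes placed wrongly, and their patterns in symbols and synonyms can miss genes that appear by locus code only. The list of cytosolic translation, with 1 gene here and 0 bright members, may thus be incomplete. MSRB9 and MGL counted as up both under amino acids and under defence. The 1 up under glycolysis was ATPMEPCRB, a pectin methylesterase by its name.

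Several other measures differed between the 2 arrays, in either direction, and their part in the result was not tested. The 18 probe sets of spike-in controls were all lower in csb3 (median log2 ratio -0.98), and the 3 of them with mean signals of 3000 or more had ratios from -0.88 to -0.77. Chloroplast-encoded probe sets, 69 in all, had a median of -1.51. The control set for 25S rRNA had 17.3 in csb3, under the floor of 50, and 384.4 in Col-0. That for 5S rRNA was under the floor in both genotypes (21.2 in csb3 and 29.5 in Col-0). The ratio of 3′ to 5′ signal, a sign of RNA quality, came from a pair of control sets per gene. For actin it was 4.91 in csb3 and 2.06 in Col-0, and 2.22 in csb3 and 1.74 in Col-0 with the second set. For GAPDH it was 1.40 in csb3 and 1.29 in Col-0, and 1.28 in csb3 and 0.871 in Col-0 with the second set. For ubiquitin it was 1.98 in csb3 and 2.66 in Col-0, and 1.40 in csb3 and 1.64 in Col-0 with the second set. Of 7 root markers 4 had a named probe set, with summed signals of 1518 in csb3 and 85.0 in Col-0. PYK10 (1219.8 in csb3 and 27.8 in Col-0) and NAI2 (241 in csb3 and 26.5 in Col-0), both genes of ER bodies, made up most of the csb3 sum. The root hair genes EXPA7 and EXPA18 did not reach 50 in either genotype, and no root marker did in Col-0. TRY, the 1 named of 3 trichome markers, had 62.3 in csb3 and 254.7 in Col-0. None of the 11 green leaf markers listed had a named probe set, so the labelled tissue was not checked in that way.

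The precision at this level is not known. Between probe sets of 1 gene, log2 ratios scattered with an SD of 0.65 over 46 genes at 50 or more in both genotypes, but only 4 of those genes had 300 or more and none had 1000 or more. Of the 116 members, 14 had a log2 ratio within 0.1 of -1, and 5 of these counted as down and 9 did not. Just inside the limit on mean signal were AT5G44580 (2622 in csb3 and 3384 in Col-0), AT5G35970 (2168 in csb3 and 3844 in Col-0) and AT3G02080. Just outside were AT1G29660 (2451 in csb3 and 3489 in Col-0), AT1G23130 (1741 in csb3 and 4199 in Col-0) and AT2G37220 (2101 in csb3 and 3825 in Col-0).

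By position, the members were spread over all 5 chromosomes. Chromosome 1 held 36, chromosome 2 held 14, chromosome 3 held 29, chromosome 4 held 13 and chromosome 5 held 24, which is 1.04%, 0.636%, 1.06%, 0.663% and 0.798% of the nuclear probe sets of each. No member lay directly beside another in the order of protein-coding genes of the RefSeq annotation (TAIR10.1 assembly).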

How the data were processed

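RNA of csb3 and Col-0 plants had been labelled and hybridised to Affymetrix ATH1 arrays, 1 per genotype. The deposited values are linear intensity signals that the authors computed with MAS5 (version not given in the sources used here). After trimming 2% of probe sets at each end, the mean signal was 250 on both arrays, the value to which the authors had scaled. They were used as deposited. Signals below 50 were set to 50, log2 ratios of csb3 to Col-0 were taken, and 2-fold or more was called up or down. SAM on triplicates, which the methods describe, was not possible with 1 array per genotype. The number of arrays limits the precision.

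Probe sets were named through the platform annotation (13513 with 1 gene, 503 with several, 8794 not listed). RefSeq genes of the TAIR10.1 assembly matched 13436 of the 13513 and left 77. Members, gene lists and groups were chosen with earlier results of these data known. Symbol patterns placed SAMDC and THIC wrongly, so the 33 named members were grouped by hand from their names. By rule the text names the 12 brightest members, up to 12 past 2-fold in each direction (or the 5 largest ratios where under 5 pass), the 4 brightest of each group and 3 probe sets on each side of the limit. The remaining named members, AT5G20290, AT3G09440 and AT4G16980 were added after their values were seen. Sequences were not used here. The calls were tested on simulated data, with planted changes well past 2-fold, which checks the code and not the precision of calls here. Alternatives were 3 floors or offsets, 5 scalings (lowess with a span of 0.3) and 4 choices of members. Python 3.11.15, NumPy 2.4.6, pandas 2.3.3, statsmodels 0.14.6 and matplotlib 3.10.9 were used.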

Additional observations from a re-analysis of the deposited data

How the results depend on the processing

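No paired analysis was possible because csb3 and Col-0 had 1 array each. With the members chosen anew under each scaling, TIP41 and SAND gave a median log2 ratio of -0.87 with 44 down and 0 up, and equal medians gave 23 down. Quantile normalization gave -0.014 with 1 down and 3 up, and lowess -0.049 with 1 down and 3 up, both levelling bright signals by construction. The spike-in controls, an alternative picked once the data had been seen, reversed the median to 0.44 with 0 down and 34 up. The cause of these shifts was not tested. A mean of 2000 or more gave 256 members, 25 down and 4 up with a median of -0.44, a mean of 5000 or more 40 members with 6 down and 0 up, and 3000 or more on both arrays 76 members with 5 down and 0 up. Floors and an added 32 left the members' counts as they were. Of 51 named genes, quantile normalization moved 16, lowess 15 and the spike-in controls all 51 by more than 0.65, the SD between probe sets of 1 gene. Over all probe sets, where 1041 were up and 624 down, a floor of 20 gave 1291 down, TIP41 and SAND 678 up and 1209 down, and the spike-in controls 7148 up and 70 down. Signal over background does not limit the bright members, whose lowest signal was 2109 in csb3 and 2229.7 in Col-0.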
